A study of Mus musculus with 6 samples.

Results

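Interferon-stimulated genes are the genes that a cell switches on when interferon binds its receptor. They were followed here as a list of 41 antiviral and immune genes, from Ifit1 and Isg15 to the guanylate-binding proteins, in primary mouse lung endothelial cells. The list was taken by gene symbol from a table of normalized counts. All 41 symbols were among the 53735 genes of the table, and all 41 passed the minimum mean of 10 normalized counts, as did 15229 genes in all. The lowest member, Mx1, had a mean of 12.7, and it passed through knockouts 3 and 4. No member lay under the minimum.

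RNA-seq was made from untreated primary cultures of mice labelled ZMPSTE24 wild type (2 libraries, wild type 1 and 2) and ZMPSTE24 knockout (4 libraries, knockout 1 to 4). Zmpste24 encodes the protease that trims prelamin A to mature lamin A, and its loss in mice is used as a model of progeria. The cells were taken from lung with beads against CD31 and ICAM2, and were grown to confluence with no passage. Strain, age, sex and the deleted part of the gene were not given in the labels, and nothing said whether libraries came from separate mice, so p-values measure only the spread between these libraries. The animals came from 2 cohorts, which the labels did not assign to samples.

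The libraries held between 32699024 and 45613685 reads assigned to genes. Across genes, wild type 1 and knockout 1 resembled each other (log-scale r of 0.985), and so did wild type 2 and knockouts 2, 3 and 4 (0.978 to 0.99), while r between these library sets was 0.908 to 0.935. Each knockout library was therefore also set against the wild type library of its own set, so knockouts 2, 3 and 4 share 1 wild type library. Zmpste24 itself had 5503 and 4148 normalized counts in the wild types and 3599 to 5079 in the knockouts, and so did not check the genotype. The endothelial genes Pecam1 and Cdh5 were abundant in all 6 libraries, with lowest values of 7429 and 13135, but summed fibroblast markers (7 genes, 401604 to 471002) exceeded summed endothelial markers (12 genes, 43601 to 200282) in every library. Macrophage and leukocyte markers (20 genes) summed to 5582 in wild type 1 and 4467 in knockout 1, against 35913 to 59984 in the other set. In such bulk RNA, fewer cells of a type and less RNA per cell cannot be told apart.

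Type I interferons bind the receptor made of Ifnar1 and Ifnar2, whose kinases Jak1 and Tyk2 activate a transcription factor complex that holds Stat2 and Irf9. The complex enters the nucleus and binds the interferon-stimulated response element (ISRE) in promoters. Interferon-gamma acts mainly through another element, the gamma-activated site (GAS). The induced proteins sense foreign RNA and DNA, block viral entry, translation and release, tag proteins with the ubiquitin-like Isg15, and in part act back on the pathway itself. Endothelial cells respond to interferon, and so do the fibroblasts and macrophages that neighbour them in the lung.

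The promoter letters of the list came first. RefSeq promoter windows on GRCm38.p6, from 250 bases before to 50 bases after the start of transcription, were found for 30 of the 41 members. The ISRE letters (GAAA, any 2 bases, GAAA) occurred on either strand in 18 of these 30 (60%), against 3.99% of 27025 genes with a window (3.44% of 32851 windows). The GAS letters (TTC, any 3 bases, GAA) occurred on either strand in 8 of 30 members (26.7%), against 9.55% of genes (8.3% of windows), and in 2 members, Bst2 and Ifitm3, the motifs shared a base. A match is a description of letters, not a site shown to be bound. The following stretches lie before the start of 8 members that stand for 5 roles described below, with ISRE matches in capitals on the strand of the gene. They are Ifit1 (chr19:34640760-34640838, plus strand), Ifit3 (chr19:34583348-34583441, plus), Ifit3b (chr19:34607744-34607837, plus), Oas1a (chr5:120907526-120907570, minus), Isg15 (chr4:156200850-156200921, minus), Rsad2 (chr12:26456538-26456597, minus), Bst2 (chr8:71537562-71537627, minus) and Igtp (chr11:58199497-58199555, plus).
Ifit1: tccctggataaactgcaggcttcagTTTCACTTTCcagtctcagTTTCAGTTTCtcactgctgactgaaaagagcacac
Ifit3: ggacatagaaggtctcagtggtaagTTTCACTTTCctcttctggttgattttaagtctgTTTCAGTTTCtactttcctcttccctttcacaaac
Ifit3b: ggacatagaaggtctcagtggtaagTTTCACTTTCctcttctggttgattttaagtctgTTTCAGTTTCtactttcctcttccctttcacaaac
Oas1a: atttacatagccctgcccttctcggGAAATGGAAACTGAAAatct
Isg15: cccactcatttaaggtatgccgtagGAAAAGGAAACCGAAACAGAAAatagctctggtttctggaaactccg
Rsad2: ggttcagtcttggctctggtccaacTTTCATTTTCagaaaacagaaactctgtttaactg
Bst2: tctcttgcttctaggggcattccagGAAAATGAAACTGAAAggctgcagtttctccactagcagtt
Igtp: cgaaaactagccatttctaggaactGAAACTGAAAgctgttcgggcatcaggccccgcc

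Ifit1, Ifit3 and Ifit3b each carried 2 matches set apart in the window, whereas Isg15 had 3 overlapping matches in a row and Oas1a and Bst2 had 2. The Ifit3 and Ifit3b stretches were identical over all 94 bases. In 14 members a match lay before the start, and in 4 (Ddx58, Ifih1, Eif2ak2 and Ifitm3) matches lay only after it.

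**Figure D1:**
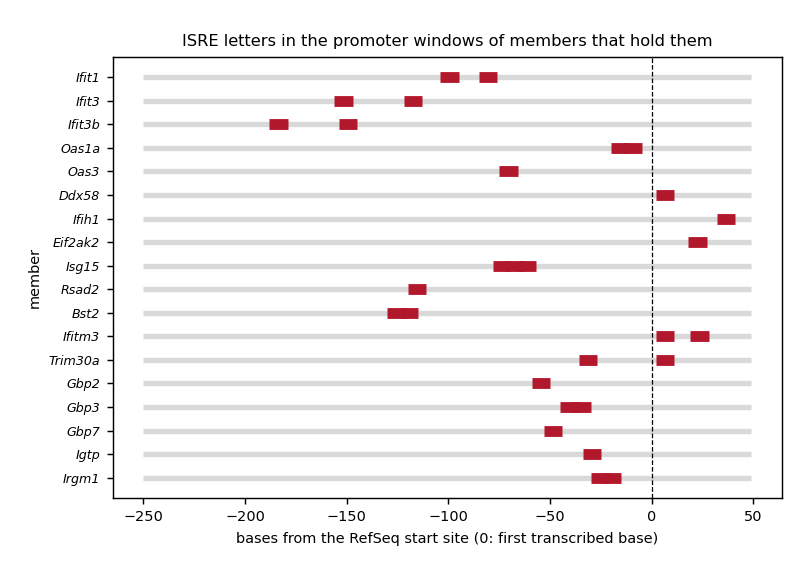
Position of every match to the ISRE letters on either strand (bars) in the promoter windows of the 18 members that hold one, 1 row per member, in bases from the RefSeq start site (dashed line at 0). In 14 members a match lies before the start, and in 4 members matches lie only after it.

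Over the list as a whole, no member passed the test between the genotypes, and the list was high in particular knockout libraries, not in all of them. In a limma fit of log2(normalized count + 1) on genotype alone, with Benjamini-Hochberg adjustment over all 15229 genes, 0 of 41 members were called higher or lower at an adjusted p of 0.05, where 0.00657% of all genes (1 gene) were called higher and 0% lower. At an unadjusted p under 0.05 the count was 1 member, Ifih1, against 0.939% of all genes. Adjusting for the library set, the counts were 0 called and 0 at the unadjusted threshold (3.51% of all genes). The edgeR quasi-likelihood test on recovered reads called 0 members with or without that term and had 0 at the unadjusted threshold (0.998% and 3.51% of all genes), and DESeq2 called 0 with 1 at the unadjusted threshold, Ifih1, in each fit (1.43% and 3.66%). DESeq2 called 0.0328% of all genes higher and 0.0131% lower, and 0.0722% and 0.256% with that term. The estimates lay above 0 for 37 of 41 members, against 50.2% of all genes, with a median log2 difference of 0.34 against 0.00 for all genes. Adjusting for the library set, 39 lay above 0, against 49.3%, and the median was 0.28. The median of 0.34 became 0.18 without knockout 3 and 0.20 without wild type 2. The members above 0 became 31 without knockout 3, and 29 without wild type 2 or without knockout 1.

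Seen library by library, the members were highest in knockout 3 and next in knockout 1. A fold of at least 1.5 over the wild type of the set, on the log2(normalized count + 1) scale, was reached by 27 of 41 members in knockout 3 (65.9%), against 8.06% of all genes. It was reached by 15 members in knockout 1 (36.6%, against 8.23%), by 5 in knockout 2 (12.2%, against 8.77%) and by 4 in knockout 4 (9.76%, against 4%). In knockouts 2 and 4, then, the members' share was closer to the background. The members past the fold in knockout 4 were Ifit3 with its near copy Ifit3b, and Mx1 with its near copy Mx2. Mx1 passed the minimum mean through knockouts 3 and 4, so its place in the counts of these libraries is no support. The same fold below the wild type was found for 0 members in knockout 3 (6.18% of all genes), 3 in knockout 1 (8.32%), 7 in knockout 2 (9.97%) and 1 in knockout 4 (4.61%). The medians over members were 0.48, 0.02, 0.81 and 0.07 in knockouts 1 to 4, where all tested genes had −0.02, 0.01, 0.00 and 0.00. Any higher value at all over the wild type of the set was seen for 36, 22, 38 and 25 members in knockouts 1 to 4, against 46.3%, 51.8%, 50.2% and 50.1% of all genes. These counts compare pairs of libraries and have no replicate check.

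**Figure D2:**
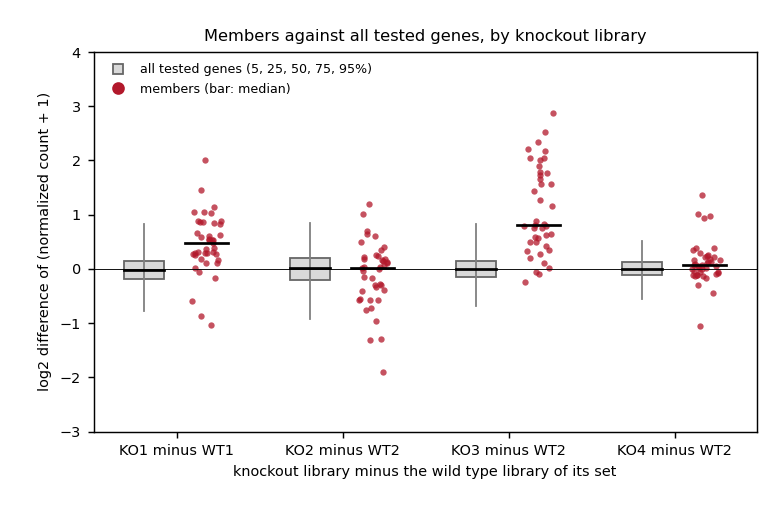
Log2 difference of (normalized count + 1) for the 41 members (red points, bar at their median) in each knockout library (KO) minus the wild type library (WT) of its set, beside all 15229 tested genes (grey box and whiskers at the 5th, 25th, 50th, 75th and 95th percentiles). Members sit above the middle of all genes in KO1 and KO3, with medians of 0.48 and 0.81, and around it in KO2 and KO4, with 0.02 and 0.07.

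Across the 6 libraries, 26 members had their highest value in knockout 3 (9.62% of all genes did), 12 in knockout 1 (19.9%) and 3 in knockout 4 (17.9%). No member was highest in wild type 1, wild type 2 or knockout 2, where 23.3%, 8.09% and 21.2% of all genes were. Within the second set, 37 of 41 members were highest in knockout 3, against 16% of all genes, and 18 were lowest in knockout 2, against 30%. The genotype groups did not overlap, with all 4 knockouts above both wild types, for 2 members, Ifih1 and Gbp2, against 2.36% of all genes, and 0 members lay the other way (2.32%). All 4 knockouts lay above the wild type of their set for 9 members (Ifit3, Oas3, Ifih1, Mx2, Rtp4, Gbp2, Gbp3, Gbp7 and Xaf1), or 22%, against 10.1% of all genes.

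**Figure D3:**
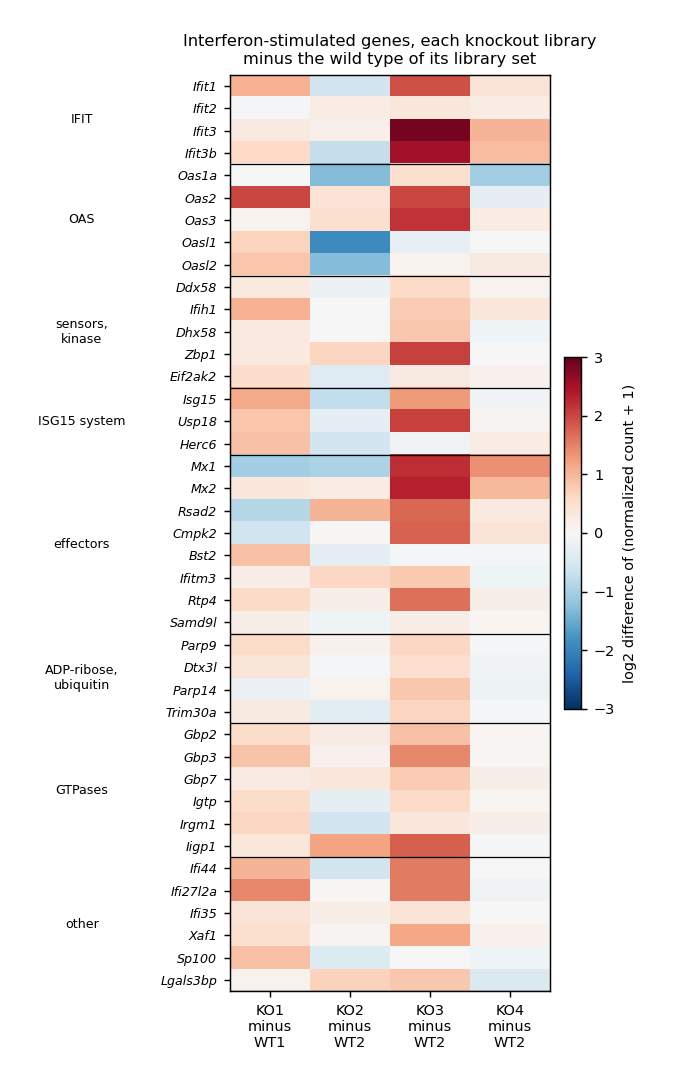
Log2 difference of (normalized count + 1) for each of the 41 members (rows, grouped by role) in each knockout library (KO) minus the wild type (WT) of its set (columns); red is higher and blue lower in the knockout, with the scale ending at 3 in either direction. The KO3 column is red for 38 of 41 members and the KO1 column for 36, while KO2 and KO4 are mixed with 22 and 25; Mx1 rests on 1 read in WT1 and 0 in KO1.

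Knockouts 1 and 3 did not have the same members on top. Of the 15 members past the fold in knockout 1 and the 27 in knockout 3, 9 were in both lists (9 of 15 and 9 of 27): Ifit1, Ifit3b, Oas2, Ifih1, Isg15, Usp18, Gbp3, Ifi44 and Ifi27l2a. Over all genes 1.88% passed in both. These pairs of libraries share no library. Across the 41 members, the differences of knockout 1 and knockout 3 had a Pearson r of −0.10 and a Spearman rho of −0.12. Over all 15229 tested genes these were 0.02 and −0.05, so the lack of agreement was not particular to the members. Both are descriptions over genes that share their libraries. Whether the knockout minus wild type difference differs between the library sets was tested by an interaction term in limma, with 2 residual degrees of freedom: 0 members and 0% of all genes were called, and 2 members, Bst2 and Sp100, had an unadjusted p under 0.05, against 3.94% of all genes. Without the filter on low values the same test called 2767 of 28019 genes and 0 members, with a smallest member adjusted p of 0.189. Dropping the filter also refits the mean trend over a larger set of genes, and the levels of the called genes are not given here. No conclusion about the members is drawn from these calls.

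The IFIT genes lie side by side on chromosome 19 (GRCm38, from 34550694 for Ifit2 to 34650009 for Ifit1) and encode tetratricopeptide proteins, of which Ifit1 binds viral RNA that lacks the methyl marks of host caps. Ifit1 stood at 347 normalized counts in wild type 1 and 347 in wild type 2, and at 720, 231, 1298 and 456 in knockouts 1 to 4. Thus 3 knockout libraries lay above both wild types and knockout 2 lay below them. The limma difference was 0.69 ± 0.66 (log2, SE; 95% interval −0.92 to 2.30; adjusted p = 1), 0.29 without knockout 3 and 1.12 without knockout 2. Ifit2 was far steadier, at 1031 and 1073 in the wild types and 991, 1259, 1358 and 1248 in the knockouts, a difference of 0.20 ± 0.16 (limma adjusted p = 1). Knockout 1 was here the lowest of all libraries and the other knockouts the highest.

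Ifit3 and Ifit3b are 97.8% identical over 1700 transcript bases, so reads may be split between them and their sum is the safer value. The sum was 285 and 126 in the wild types and 364, 126, 883 and 252 in knockouts 1 to 4. Knockout 3 stood 2.80 above its wild type on the log2 scale and knockout 4 1.00 above it, whereas knockout 2 was level with it and knockout 1 was 0.35 above wild type 1. In knockout 4 this pair made up 2 of the 4 members past the fold.

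The oligoadenylate synthetases make the messenger that activates RNase L on meeting double-stranded RNA. Oas1a, Oas2 and Oas3 lie together on chromosome 5 (120730333 to 120907521) and Oasl1 and Oasl2 on the same chromosome (114896936 to 114937915). Oas2 had 33.5 and 15 normalized counts in the wild types and 137, 20.1, 63.4 and 12.1 in the knockouts. Its differences in knockouts 1 and 3, 2.00 and 2.01 on the log2 scale, were nearly equal, and in knockout 1 it was the member with the greatest difference. Oas3 had 98.4 and 23 in the wild types and 106, 32.8, 107 and 27.3 in the knockouts, so knockout 3 stood out against wild type 2 but only reached the level of the first set. Oas1a, 97.6% identical to Oas1g over 1861 bases, had 84.8 and 57.6 in the wild types and 86.3, 22.8, 81.5 and 27.3 in the knockouts. It was low in knockouts 2 and 4, at −1.30 and −1.05 on the log2 scale, and in knockout 4 it was the only member past the fold in that direction.

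Oasl1 and Oasl2 belong to the OAS-like branch, and Oasl1 is known to restrain translation of Irf7 in mice. Oasl1 had 96.3 and 187 in the wild types and 153, 49.3, 158 and 189 in the knockouts. Knockout 2 stood far below the other knockouts, with a log2 difference of −1.90 to its wild type. The limma difference over all libraries was −0.13 ± 0.62 (adjusted p = 1), and 0.30 without knockout 2. Oasl2 had 568 and 1559 in the wild types and 1021, 630, 1670 and 1870 in the knockouts. Knockout 2 was again low (−1.31), and the limma difference was 0.34 ± 0.58 (adjusted p = 1). These genes and Herc6 were the 3 members with their highest value in knockout 4.

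Among the cytoplasmic sensors is Ifih1 (MDA5, which binds long double-stranded RNA). It was the only member with an unadjusted p under 0.05 in the limma fit on genotype alone. It had 431 and 739 normalized counts in the wild types and 892, 746, 1247 and 944 in the knockouts, so every knockout was above both wild types, knockout 2 by a small margin over wild type 2. The limma difference was 0.74 ± 0.29 (95% interval 0.02 to 1.45; adjusted p = 1), and 0.64 ± 0.26 after adjusting for the library set (adjusted p = 0.999). Its size rested on the wild type libraries, being 0.35 without wild type 1 and 1.12 without wild type 2, and 0.37 in the second set alone. Ifih1 was given these statistics after its values were seen. Ddx58 (RIG-I, the sensor of short RNA with a triphosphate end) had 3570 and 2099 in the wild types and 4391, 1869, 3147 and 2244 in the knockouts. The first set was high in both genotypes, and the limma difference was 0.01 ± 0.40 (adjusted p = 1), or 0.22 ± 0.22 after adjusting for the library set (adjusted p = 0.999). Dhx58 (LGP2, a helper of both sensors) ran from 147 in wild type 1 to 439 in knockout 3.

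Zbp1, which senses left-handed nucleic acid and can start necroptosis, had 56.5 and 130 in the wild types and 69.8, 204, 537 and 129 in the knockouts. Knockout 3 was 2.04 above its wild type on the log2 scale and knockout 2 was 0.65 above, while knockout 4 was level. Eif2ak2 (PKR, a kinase that halts translation on double-stranded RNA) showed another order, with 2731 and 1979 in the wild types and 3946, 1517, 2405 and 2149 in the knockouts. Knockout 1 was its highest library and knockout 2 its lowest, and the limma difference was 0.02 ± 0.38 (adjusted p = 1).

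The ISG15 system attaches a ubiquitin-like tag to proteins. Isg15 encodes the tag, Herc6 the main ligase for it in mice, and Usp18 the enzyme that removes it and also damps the interferon receptor. Isg15 had 513 and 355 normalized counts in the wild types and 1131, 211, 866 and 328 in the knockouts. Knockouts 1 and 3 lay above both wild types, and knockouts 2 and 4 below both. The limma difference was 0.26 ± 0.72 (adjusted p = 1). Usp18 followed with 237 and 141 in the wild types and 420, 115, 580 and 149 in the knockouts. Herc6 departed from both, with 185 and 313 in the wild types and 340, 211, 292 and 366 in the knockouts, and a limma difference of 0.30 ± 0.32 (adjusted p = 1). All 3 genes of the system were past the fold in knockout 1, with log2 differences of 0.83 to 1.14, and Isg15 and Usp18 were in knockout 3.

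The plot of 9 members by library shows these orders side by side.

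**Figure D4:**
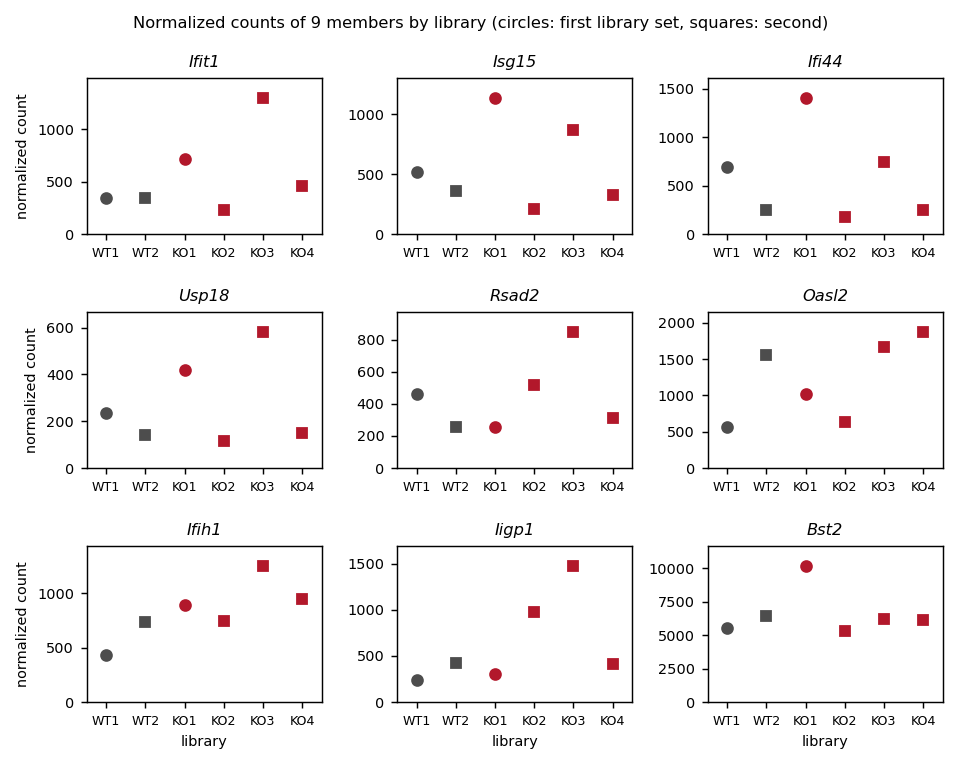
Normalized counts of 9 members in the wild type (WT, grey) and knockout (KO, red) libraries, with 1 point per library and each vertical axis starting at 0; circles are the first library set (WT1 and KO1) and squares the second. Ifit1, Usp18, Rsad2, Ifih1 and Iigp1 are highest in KO3, Isg15, Ifi44 and Bst2 in KO1, and Oasl2 in KO4.

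The direct antiviral effectors had a median log2 difference of 1.69 over 8 members in knockout 3, against 0.18, 0.11 and 0.23 in knockouts 1, 2 and 4. These 8 include Mx1, which passed the minimum mean through knockouts 3 and 4, so its place in the medians of those libraries is no support. Rsad2 (viperin, which makes a chain-terminating nucleotide) had 462 and 255 normalized counts in the wild types and 255, 517, 847 and 311 in the knockouts. Its neighbour on chromosome 12, Cmpk2, a mitochondrial nucleotide kinase, had 149 and 81.8 in the wild types and 97.6, 83.9, 282 and 107 in the knockouts. In both genes knockout 1 lay below wild type 1, by −0.86 and −0.60 on the log2 scale, while knockout 3 lay 1.73 and 1.77 above wild type 2. They were 2 of the 3 members past the fold downward in knockout 1. The third, Mx1, had 1 read in wild type 1 and 0 reads in knockout 1, where 3 reads (3.08 normalized counts) is the limit that a count of 0 allows for counting error alone, so no fold is given.

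Mx1 and Mx2 encode dynamin-like GTPases that act against influenza and other viruses, and many laboratory mouse strains carry disrupted copies. In GENCODE M21 Mx2 is annotated as a polymorphic pseudogene, and it is 95.3% identical to Mx1 over 843 bases. Mx1 plus Mx2 summed to 34.5 and 32.3 in the wild types and 42.1, 31.9, 168 and 70.7 in the knockouts. Knockouts 3 and 4 lay 2.35 and 1.11 above wild type 2 on the log2 scale. Mx1 passed the minimum mean through these libraries, so its part in the sum is no support. Mx2 alone lay 2.34 and 0.97 above wild type 2. The remaining members past the fold in knockout 4 were Mx1 and Mx2.

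Bst2 (tetherin, which holds budding virus at the cell surface) and Ifitm3 (which blocks fusion of virus in endosomes) were the most abundant members per length, with means over libraries of 7349 and 27696 normalized counts per kilobase of exon, against a median of 144 for the list. Bst2 had 5513 and 6444 normalized counts in the wild types and 10149, 5329, 6243 and 6137 in the knockouts. Knockout 1 stood alone, and the libraries of the other set lay close together; the limma difference was 0.18 ± 0.27 (adjusted p = 1). Ifitm3 had 12624 and 16540 in the wild types and 14405, 25219, 28690 and 15189 in the knockouts. Here knockouts 2 and 3 were the high libraries, and the limma difference was 0.47 ± 0.34 (adjusted p = 1), or 0.27 without wild type 1 and 0.29 without knockout 3. Rtp4, which is strongly interferon-induced, had 283 and 165 in the wild types and 422, 186, 521 and 186 in the knockouts, each knockout above its wild type. Samd9l, a restriction factor of poxviruses, differed more between the library sets than between the genotypes, with 2783 and 3138 in the first set and 1380 to 1750 in the second.

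Parp9 and Dtx3l encode partners that join ADP-ribosylation to ubiquitin transfer, and Parp14 is a related macrodomain ADP-ribosyltransferase, all on chromosome 16. Exons of Parp9 and Dtx3l overlap by 458 bases on opposite strands, and whether strand was used in counting was not stated in the sources used here. Parp9 had 1066 and 1331 in the wild types and 1574, 1471, 2047 and 1282 in the knockouts, a limma difference of 0.40 ± 0.21 (adjusted p = 1), or 0.24 without wild type 1. Dtx3l ran from 631 in wild type 1 to 1493 in knockout 3. Parp14 had 1441 and 1290 in the wild types and 1280, 1385, 2260 and 1152 in the knockouts, so knockout 3 was the high library, with a limma difference of 0.10 ± 0.28 (adjusted p = 1). Trim30a, a ubiquitin ligase of the tripartite motif family, had 551 and 424 in the wild types and 667, 336, 661 and 406 in the knockouts, the 2 high knockouts being 1 and 3.

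The interferon-inducible GTPases attack the vacuoles of intracellular pathogens and respond strongly to interferon-gamma. Gbp2 had 1274 and 1547 normalized counts in the wild types and 1859, 1842, 2839 and 1622 in the knockouts, and all 4 knockouts exceeded both wild types. Its limma difference was 0.50 ± 0.24 (adjusted p = 1) and 0.46 ± 0.24 after adjusting for the library set (adjusted p = 0.999). Gbp3 had 553 and 361 in the wild types and 1001, 392, 975 and 377 in the knockouts. Gbp7 had 312 and 439 in the wild types and 372, 557, 743 and 498 in the knockouts. All 3 of these neighbours on chromosome 3 lay above their wild type in every knockout, most in knockout 3, with log2 differences of 0.76 to 1.43.

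Among the immunity-related GTPases, Iigp1 had 243 and 426 in the wild types and 301, 976, 1473 and 417 in the knockouts, so knockouts 2 and 3 were high, by 1.19 and 1.79 on the log2 scale. Irgm1, a regulator of the family, had 4284 and 2128 in the wild types and 6586, 1427, 2684 and 2393 in the knockouts. The first set was the higher one in both genotypes, and the limma difference of −0.12 ± 0.62 (adjusted p = 1) turned to 0.23 ± 0.30 after adjusting for the library set (adjusted p = 0.999). Igtp, which overlaps Irgm2 by 162 exonic bases on the same strand, ran from 271 in wild type 1 to 696 in knockout 3.

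The remaining 6 members have mixed or less defined roles. Ifi44 had 688 and 250 in the wild types and 1402, 171, 746 and 253 in the knockouts, and Ifi27l2a had 23 and 38 in the wild types and 64.7, 39.2, 115 and 35.3 in the knockouts. Both were high in knockouts 1 and 3, with log2 differences between 1.03 and 1.57. Xaf1, which promotes apoptosis, had 1817 and 1210 in the wild types and 2528, 1280, 2709 and 1320 in the knockouts, a limma difference of 0.31 ± 0.40 (adjusted p = 1). That value was 0.02 without wild type 2, 0.13 without knockout 3, 0.16 without knockout 1 and 0.61 without wild type 1. Sp100, a component of nuclear bodies, was high only in knockout 1, at 1918 against 727 to 1043 in the other 5 libraries. Lgals3bp, a secreted glycoprotein, had 7055 and 6124 in the wild types and 7591, 9901, 10681 and 4514 in the knockouts, with knockout 4 the lowest, and a limma difference of 0.24 ± 0.36 (adjusted p = 1). Left-out libraries moved it between 0.09 (without knockout 3) and 0.50 (without knockout 4). Ifi35 stayed between 1068 and 1563.

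The wild type libraries themselves were as far apart as many of these differences. Between wild type 1 and wild type 2, 25 of 41 members (61%) differed by at least 1.5-fold, 14 higher and 11 lower in wild type 1, against 37% of all genes (18% higher, 19% lower). The median absolute log2 difference was 0.75 over members and 0.41 over all genes. Members with a higher value in wild type 1 included Ifi44, Oas3 and Irgm1, and those with a lower value included Zbp1, Iigp1 and Oasl2.

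Promoter letters were next set beside these values. The 18 members with ISRE letters in the window had median log2 differences of 0.53, −0.22, 0.78 and 0.11 in knockouts 1 to 4. The 12 members without them had 0.43, −0.09, 0.38 and 0.04, and the 11 members with no window had 0.32, 0.14, 1.79 and −0.03. The order of the libraries was thus alike in the first and second groups except between knockouts 1 and 3. Ifit3 and Ifit3b, whose printed stretches are identical, both had their highest difference in knockout 3 (2.87 and 2.52) and differed in sign in knockout 2 (0.16 and −0.72), the latter from 18 reads of Ifit3b in knockout 2 and 24 in wild type 2.

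Genes of the pathway outside the list were counted by role, and 0 of those tested were called by limma in any role, with or without the library set. Of 10 interferon genes, 0 passed the minimum mean and 7 were at 0 in every library. Ifnb1 was seen only in knockout 3, at 0.857 normalized counts (1 read), Ifna2 only in knockout 3, at 1.71, and Ifne only in wild type 1, at 2.09. All of these are within the 3 reads that a count of 0 allows. Among the receptors, Ifnar1 lay between 6122 and 7707 normalized counts, while Ifnlr1, a receptor chain for interferon lambda, lay between 54.4 and 142. The 6 receptor genes had medians of 0.06, 0.16, 0.18 and 0.02 in knockouts 1 to 4.

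Some of the signal transducers are themselves interferon-inducible. Irf7, the factor that amplifies interferon production, had 483 and 309 in the wild types and 937, 281, 784 and 287 in the knockouts. It was high in knockouts 1 and 3, as Isg15 was. Stat2 and Irf9 were highest in knockout 3, at 3106 and 2438. The 11 kinases and factors had medians of 0.11, 0.16, 0.44 and −0.09, the 12 tested genes of nucleic acid sensing 0.08, 0.02, 0.20 and 0.06, and the 5 brakes 0.12, 0.21, 0.15 and −0.22.

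A wider group of interferon-stimulated genes was also highest in knockouts 3 and 1. Of 55, 52 were tested, with medians of 0.30, −0.07, 0.40 and −0.06. In knockouts 1 to 4, 13, 5, 16 and 1 of them were past the fold upward and 1, 5, 0 and 2 downward. The upward shares were 25% in knockout 1 (8.23% of all genes) and 30.8% in knockout 3 (8.06%). Knockouts 2 and 4 had 9.62% and 1.92%, near or below the 8.77% and 4% of all genes. Cxcl10, a chemokine for T cells, had 47.1 and 103 in the wild types and 53.4, 73.9, 484 and 210 in the knockouts. Ifitm1, the neighbour and relative of Ifitm3, had 29.3 and 370 in the wild types and 48.3, 3380, 2440 and 459 in the knockouts, so it was high in knockouts 2 and 3 as Ifitm3 was.

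Markers of other cell types differed in knockouts 1 and 3, but also in knockouts 2 and 4. The 5 smooth muscle markers had medians of 0.11, 0.66, 0.17 and −0.05 in knockouts 1 to 4. In knockout 2, 3 of them were past the fold upward and 1 downward. The 5 tested epithelial markers had 0.26, −0.05, 0.48 and 0.01. In knockouts 2 and 4, macrophage and leukocyte markers had medians of 0.34 and −0.02, and mesothelial markers −0.36 and 0.04. In knockout 3, the 20 macrophage and leukocyte markers had a median log2 difference of 0.93, with 15 of 20 past the fold, and summed to 59984 against 41227 in wild type 2. In knockout 1 their median was −0.21 and their sum 4467 against 5582 in wild type 1, a sum made up mostly of Cd14 (2820 against 3559) and Lyz2 (718 against 856). There 6 of the 20 were past the fold upward and 5 downward, and 8 of the 20 lay above wild type 1 at all. Ptprc (10.3 against 5.23) and Adgre1 (33.9 against 9.42) were higher in knockout 1, at low counts. Cd68 (137 against 206), Mrc1 (147 against 218) and Laptm5 (66.8 against 197) were lower. The 5 mesothelial markers were high in knockout 1 instead, at 61241 against 26485, with 4 of 5 past the fold and a median of 1.27, and low in knockout 3, with −0.94. Fibroblast markers also had a positive median in knockout 1, 0.63 with 4 of 7 past the fold (Dcn at 1.42, Col3a1 at 0.91), though their sum was 401604 against 411162, and medians of −0.30, −0.14 and −0.01 in knockouts 2 to 4. Endothelial markers had medians of −0.66, 0.02, −0.22 and −0.71 in knockouts 1 to 4. Lymphocyte markers (11 genes) summed to at most 19.5 normalized counts in any library, with Cd3e, Cd8a, Nkg7 and Ncr1 at 0 throughout, and plasmacytoid dendritic markers (4 genes) to at most 6.16. The part of the other cell types in the member values was not tested.

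**Figure D5:**
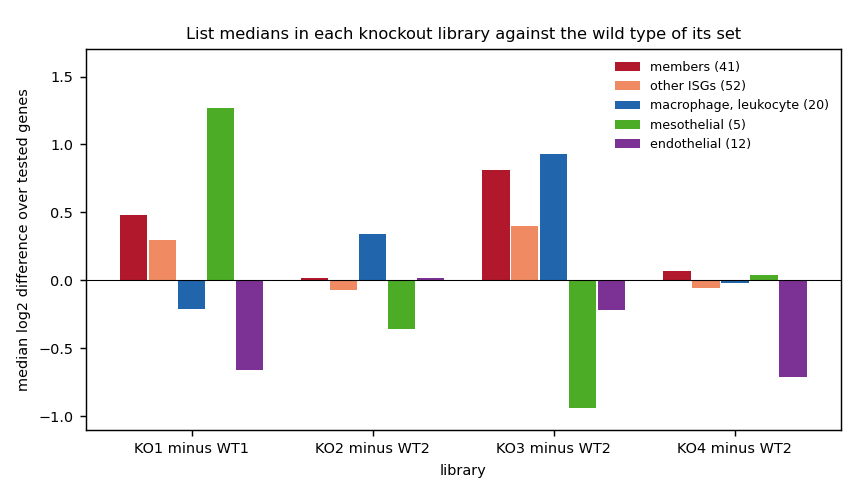
Median log2 difference of (normalized count + 1) over the tested genes of 5 lists (number of genes in brackets) in each knockout library (KO) minus the wild type (WT) of its set; bars start at 0 and have no error, since each is a pair of libraries. In KO3 the members (0.81) and the macrophage and leukocyte markers (0.93) are both high, and in KO1 the members (0.48) and the mesothelial markers (1.27) are, with the leukocyte markers at −0.21. Fibroblast (0.63 in KO1), smooth muscle (0.66 in KO2) and epithelial markers (0.48 in KO3) are not drawn. The part of other cell types in the member values was not tested.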

How the data were processed

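RNA-seq of 6 libraries (2 labelled wild type, 4 labelled knockout) was used. The deposited table holds a signal: normalized counts per gene, which the authors made by dividing counts by a size factor, as its values show. The submitters' processing notes list Trimmomatic 0.36, STAR 2.6.0c, featureCounts of Subread 1.6.1 and the build GRCm38.p6, whereas the series' design text names Trimmomatic 0.32, STAR 2.4.2a, HTSeq, GENCODE M17 and DESeq2 1.10.1. In every library 100% of values were whole multiples of 1 read (tolerance 1e-06), so reads were recovered for edgeR and DESeq2. Depth was 32699024 to 45613685 reads per library.

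The main test was limma 3.58.1 (R 4.3.3, mean trend) on log2(normalized count + 1), genotype alone, for 15229 genes with a mean of at least 10, Benjamini-Hochberg adjusted with a threshold of 0.05. Alternatives were the library set as a term, pseudocounts of 0.5 and 5, other filters, TMM and upper-quartile scaling, array weights, no trend, edgeR 4.0.16, DESeq2 1.42.0, the second set alone, a replicate block and leaving out each library. Library sets follow the correlation between libraries, not the labels. Standard errors and adjusted p-values are given for the 2 members of each role with the highest mean count and any member called in a fit (none was), plus Ifih1. The members, roles, lists and library sets were chosen with earlier results of these data known. Gene positions and exon lengths are from GENCODE M21 on GRCm38, near copies from blastn 2.17.0 (at least 95% over 200 bases), and promoter letters from RefSeq on GRCm38.p6. The limma script was tested on simulated data.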

Additional observations from a re-analysis of the deposited data

Results flagged for a closer look

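In 4 members knockout 1 differed from wild type 1 in 1 direction while knockouts 2, 3 and 4 all differed from wild type 2 in the other. The share of all genes with such a split is not given here, so this count has no background to be read against. Ifit2 (difference between the sets, second minus first, of 0.32 on the log2 scale), Rsad2 (1.87) and Cmpk2 (1.33) were lower in knockout 1 and higher in the other 3, and Bst2 (−1.01) was the reverse. The differences were tested by the interaction term in limma over all 15229 genes, where no member was called and the smallest adjusted p of any member was 0.999, so a difference between the sets was not shown. Knockouts 2 to 4 share 1 wild type library, which fixes part of this pattern. In Oasl1, knockout 2 stood apart from the other 3 knockouts, with a gap of 0.843 of the group's range, above Dixon's 95% critical value for 4 samples. It was 1 of 41 members, and chance flags about 1 in 20 such groups.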

How the results depend on the processing

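The number of members called was 0 in every fit run, interaction fits included. Over all genes, the interaction fit called 0 of 15229 with the filter and 2767 of 28019 without it. The median log2 difference over members was 0.34 and kept its sign throughout, but array weights, whose estimate did not fully converge, gave 0.87. Leaving out each library in turn gave 0.18 (without knockout 3) to 0.48, with 0.20 without wild type 2. Members above 0 then ran from 29 (without wild type 2 or without knockout 1) to 39. With a fold of 2 in place of 1.5, chosen after seeing the data, 6, 2, 18 and 2 members were past it in knockouts 1 to 4, in place of 15, 5, 27 and 4. The share of all genes past a fold of 2 is not given here, so these counts have no background to be read against. A mean of at least 50 left 39 members.

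Of the members given with an error, several turned sign under an alternative. The second set alone gave Bst2 −0.13, Herc6 −0.15 and Oasl2 −0.31, and array weights gave Oasl1 0.12. Irgm1 became 0.23 after adjusting for the library set, 0.04 and 0.27 in edgeR and 0.03 and 0.26 in DESeq2, without and with that term. Leave-one-out ranges were −0.02 to 0.29 for Bst2, −0.37 to 0.39 for Ddx58, −0.23 to 0.25 for Eif2ak2, −0.08 to 0.67 for Herc6, −0.62 to 0.39 for Irgm1, −0.12 to 0.68 for Isg15, −0.60 to 0.34 for Oasl1, −0.39 to 1.07 for Oasl2 and −0.10 to 0.22 for Parp14. They were 0.14 to 0.29 for Ifit2 and 0.33 to 0.64 for Gbp2, the latter without knockout 3 and without wild type 2. The cause was not tested.

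With the title number as a replicate block, which only numbers 1 and 2 share between the genotypes, 0 members were called, the median was 0.23 and 33 were above 0, and 8 members turned sign: Irgm1 (0.02) and Samd9l to above 0, and Oasl2 (−0.23), Parp14 (−0.03), Cmpk2, Ifit3b, Mx1 and Trim30a to below it. Deviations of same-numbered libraries from the mean of their genotype correlated at 0.841 and 0.562. However, wild type 2 also correlated with knockout 3 (0.668) and knockout 4 (0.53) of its library set. The numbers were therefore not taken to pair samples. With 2 wild type libraries, their deviations mirror each other (wild type 1 and knockout 2 gave −0.562), so these values are not independent of each other.

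The 2 wild type libraries, which belong to different library sets, differed at 61% of members by at least 1.5-fold, against 37% of all genes. How far spread or depth limits the precision was not tested. The members with the fewest reads (Mx1, Mx2, Oas2 and Ifi27l2a) carry the largest counting error.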

Other observations

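In the wider group of interferon-stimulated genes, 3 neighbours of the PYHIN family, whose products bind DNA, lay above the wild type of the set in all 4 knockouts, as 10.1% of all genes did, whereas a further member of the family, Ifi204, lay below it in knockout 2 (−0.03 on the log2 scale). They were chosen after their values were seen. Ifi203 had 109 and 235 normalized counts in the wild types and 209, 368, 652 and 300 in knockouts 1 to 4. Ifi205 had 229 and 319 in the wild types and 353, 775, 798 and 386 in the knockouts. Mnda had 494 and 667 in the wild types and 669, 869, 1196 and 751 in the knockouts. All 4 knockouts exceeded both wild types for Mnda and Ifi205, as for 2.36% of all genes, whereas knockout 1 of Ifi203 lay below wild type 2. None of the 3 was called in limma after adjusting for the library set (adjusted p = 0.999 for each), where the log2 differences were 0.86 ± 0.34, 0.82 ± 0.34 and 0.45 ± 0.20 (SE).

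Trex1, the DNase whose loss sets off the interferon response in mice, was listed at 0 in all 6 libraries. Both wild types are among them, so the gene gives no comparison of the genotypes. Whether the value reflects expression or the counting of reads was not tested.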
